A study of Mus musculus with 12 samples.

Results

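Liver of SGP mice was compared with liver of their WT littermates at 14 months of age, the older of the ages in this study. SGP mice carry a transgene for sgp130Fc, soluble gp130, the shared IL-6 co-receptor, joined to an antibody Fc part. The comparison used every library in the deposited table for 14 months, which are replicates 2 and 3 of WT and replicates 1 and 3 of SGP, or 4 of the 10 libraries in the deposited tables and of the 12 that were labelled. The study left out 1 WT and 1 SGP library of this age as exceptional for their group, and these were not analysed here. The table lists 54446 genes, and the 11495 whose mean reached 5 normalized counts over the 4 libraries were tested. All animals were male C57BL/6 mice on a chow diet without restriction, bred from sgp130Fc heterozygous parents. SGP animals were homozygous for the transgene, and WT littermates did not carry it. Mice were killed under xylosine ketamine anaesthesia, and the hour of collection is not given in the sources used here. The genotype was set by the sgp130 level in serum, so reads of the endogenous gene Il6st do not check it, and the promoter that drives the transgene is not given in the sources used here. The name of each library joins a pair of animal labels, so whether a library pools mice is not known. The study counts the libraries as mice, and each n below counts libraries.

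IL-6 reaches cells by separate routes. In classic signaling it binds its receptor on the membrane of hepatocytes and some leukocytes. In trans-signaling it binds a soluble receptor, and the complex then acts on any cell that carries gp130. The sgp130Fc protein captures that complex and so blocks trans-signaling while it largely spares the classic route. Inside the cell gp130 activates the transcription factor STAT3, which in hepatocytes drives the acute phase proteins, plasma proteins that the liver releases in inflammation.

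RNA was profiled by CEL-Seq, which reads the 3' end of each transcript, and the values are normalized counts, the reads of a gene divided by a size factor for the library. The reads could be recovered from these values and numbered 3564298 and 3996786 for WT against 3355623 and 3332502 for SGP. Values are given in the order WT replicate 2, WT replicate 3, SGP replicate 1, SGP replicate 3 throughout. The markers of hepatocytes, among them Alb for albumin and Apoa1 for an apolipoprotein, summed to 264513 and 277433 normalized counts in WT and to 329137 and 308887 in SGP. SGP replicate 1 also carried transcripts of the exocrine pancreas. Markers of that tissue summed to 134 and 157 in WT and to 3816 and 272 in SGP, and the lipase gene Pnlip had 0 and 1 reads in WT but 209 and 1 in SGP. Outside SGP replicate 1 each sum was mostly the marker Cela1, at 124 and 135 in WT and 267 in SGP replicate 3. Cela1 also had 78.9 to 276 normalized counts in the libraries of 6 months. Replicates of a genotype differed by more than sampling noise, with a chi-square per degree of freedom of 19.4 for the WT pair over 12152 genes and 10.1 for the SGP pair over 11246 genes. The p-values rest on the spread between these libraries, and limma also draws the variance of each gene toward a trend over all genes. In bulk RNA, fewer cells of a type and less RNA per cell cannot be told apart.

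Of the 11495 genes, 5885 were higher and 5610 lower in SGP, at a median log2 fold change of 0.01. By limma with Benjamini-Hochberg adjustment 3 genes were past an adjusted p of 0.05, which is 0.0261% of those tested, and all 3 were lower in SGP. At an unadjusted p of 0.05, 553 genes (4.81%) were lower and 483 (4.2%) higher. Each SGP library lay under each WT library for 2207 genes (19.2%), and above them for 2422 (21.1%). These shares are the background against which the counts for each gene list are read below. The edgeR test called the same 3 genes, and DESeq2 on the recovered reads called 53 of 7038 genes (0.753%), of which 30 were lower and 23 higher. The number of calls turned on single libraries. Without WT replicate 2 there were 147 lower and 93 higher genes, without WT replicate 3 there were 244 and 329, without SGP replicate 1 there were 2 and 0, and without SGP replicate 3 there was none in either direction.

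The 3 genes past the threshold code for an inducible chaperone, a metal-binding protein and a carrier of insulin-like growth factors. Hspa1b (ENSMUSG00000090877.3, chr17:34956136-34959238, minus strand, GRCm38.p6) encodes HSP70, which refolds proteins after heat and other stress. It stood at 254 and 183 normalized counts in WT and at 17.8 and 13.7 in SGP. The replicates of a genotype were close together and the genotypes far apart, and Hspa1b fell by 3.71 on the log2 scale (SE, the standard error of the difference, 0.26, n = 2 per genotype, limma adjusted p = 0.00388). Mt2 (ENSMUSG00000031762.7, chr8:94172664-94173868, plus strand) encodes metallothionein-2, a small protein that binds zinc and copper. Its values were 4974 and 2930.3 in WT and 133 and 39.9 in SGP. Mt2 fell by 5.69 on the log2 scale (SE 0.48, limma adjusted p = 0.00756). Igfbp1 (ENSMUSG00000020429.7, chr11:7197782-7202846, plus strand) encodes a secreted binding protein of insulin-like growth factors, which fasting raises and insulin represses in hepatocytes. It had 413 and 540.5 normalized counts in WT and 38.9 and 13.7 in SGP, and fell by 4.29 on the log2 scale (SE 0.41, limma adjusted p = 0.0137). For all 3 genes the higher of the SGP libraries was far below the lower of the WT libraries. The calls depended on the settings and on single libraries. With no variance trend none of the 3 passed, although the folds were the same, and Igfbp1 did not pass when genes needed a mean of at least 20. Without SGP replicate 3 none of the 3 passed, at -3.53 for Hspa1b, -4.83 for Mt2 and -3.57 for Igfbp1, and without SGP replicate 1 Hspa1b did not pass, at -3.88.

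The closest paralogs of Mt2 and Hspa1b were lower in SGP as well, at other levels. Mt1 (ENSMUSG00000031765.8, chr8:94179082-94180627, plus strand), the metallothionein gene next to Mt2, stood at 23488 and 10367 normalized counts in WT and at 1749.9 and 467 in SGP, a log2 fold change of -4.11 (SE 0.56, limma adjusted p = 0.0635). Hspa1a (ENSMUSG00000091971.3, chr17:34968890-34972156, minus strand), the near copy of Hspa1b, had 34 and 42 WT reads and 0 in both SGP libraries. Against a floor of 3 reads over the SGP group it was at least 22.4-fold lower. How reads that fit both Hspa1b and Hspa1a were counted is not given in the sources used here. Such reads can have been left out of both genes or shared between them, and the same holds for Mt1 and Mt2. The 250 bases upstream of the RefSeq start of each gene are shown (RefSeq on GRCm38.p6, 5' to 3' on the strand of the gene). The windows of a pair were compared position by position without alignment, and only those of the Hspa1 pair were near copies. Sequence that Mt1 and Mt2 share at other positions was not looked for. Capitals mark the metal response element core TGCACNC or TGCGCNC in the metallothionein genes and the heat shock element GAANNTTC in the chaperone genes, on either strand. The windows are chr8:94172368-94172617 for Mt2, chr8:94178839-94179088 for Mt1, chr17:34959239-34959488 for Hspa1b and chr17:34972157-34972406 for Hspa1a.
Mt2: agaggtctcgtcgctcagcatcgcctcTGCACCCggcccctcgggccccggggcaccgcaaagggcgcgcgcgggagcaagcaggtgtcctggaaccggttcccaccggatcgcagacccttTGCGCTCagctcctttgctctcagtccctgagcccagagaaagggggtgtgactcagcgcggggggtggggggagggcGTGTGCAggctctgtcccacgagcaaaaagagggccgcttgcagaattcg
Mt1: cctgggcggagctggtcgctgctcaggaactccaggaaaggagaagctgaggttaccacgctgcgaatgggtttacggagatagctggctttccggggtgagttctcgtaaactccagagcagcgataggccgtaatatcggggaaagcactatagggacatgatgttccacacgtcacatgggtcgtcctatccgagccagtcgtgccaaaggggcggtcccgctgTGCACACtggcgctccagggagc
Hspa1b: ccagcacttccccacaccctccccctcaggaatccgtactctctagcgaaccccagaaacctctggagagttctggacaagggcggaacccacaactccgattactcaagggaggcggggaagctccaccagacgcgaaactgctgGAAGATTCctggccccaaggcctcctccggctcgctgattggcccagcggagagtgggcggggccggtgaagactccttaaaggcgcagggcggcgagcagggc
Hspa1a: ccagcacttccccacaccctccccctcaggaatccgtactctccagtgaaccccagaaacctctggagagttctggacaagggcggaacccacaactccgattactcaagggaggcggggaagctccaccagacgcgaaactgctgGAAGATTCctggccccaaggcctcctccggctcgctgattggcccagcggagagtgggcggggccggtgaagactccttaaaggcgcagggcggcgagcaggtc

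The windows of Hspa1b and Hspa1a were identical at 247 of 250 positions, and each held 1 heat shock element that began 104 bases before the start. A heat shock element was found in 6.69% of 32851 RefSeq promoter windows of this length. Mt2 held 3 metal response element cores, which began 223, 128 and 50 bases before the start, and Mt1 held 1, at 23 bases. Bases after the RefSeq start were not searched, so these counts hold for the windows only. At least 1 core was found in 21.4% of all windows, and 3 or more in 1.26%. The window of Igfbp1 (chr11:7197537-7197786, plus strand) matched neither of these motifs nor the STAT3 site TTCNNNGAA, which 7.02% of all windows held. A match is a run of letters and not evidence of binding. Motif shares given below for whole gene lists describe lists put together by hand, and are not a result about the genotypes.

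Around Hspa1b, 20 of the 24 heat shock chaperones tested were lower in SGP, at a median log2 fold change of -0.40. For 14 of them each SGP library lay under each WT library, and 10 had an unadjusted p under 0.05. Bag3, a co-chaperone that hands HSP70 clients to autophagy, stood at 124 and 114 normalized counts in WT and 52.2 and 50.4 in SGP (log2 fold change -1.20, limma adjusted p = 0.116). Dnajb1, the HSP40 partner of HSP70, had 105 and 77.1 in WT and 33.3 and 38.9 in SGP (-1.30, limma adjusted p = 0.166). The exchange factor Hsph1 had 187 and 123 in WT and 78.8 and 64.1 in SGP (-1.08, limma adjusted p = 0.246). In each of these the genotypes were separate but the difference did not pass the threshold. The share of the list with separate lower libraries was above the 19.2% of all genes, and Hspa1b was its only member past the threshold. Of the 20 list members with a promoter window, 7 (35%) held a heat shock element in at least 1 window, against 7.73% of all 27025 genes. Hspa1b and Hspa1a were among them, but the windows of Bag3, Dnajb1 and Hsph1 held no such element.

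The list of metal and oxidative stress genes had no common direction, with 12 of 23 tested genes lower, 11 higher and a median of -0.00. More were separate in the lower direction, 10 against 4 in the higher. Beside the metallothioneins, Hmox1, which encodes the heme-degrading enzyme heme oxygenase-1, stood at 114 and 141 in WT and 50.0 and 46.2 in SGP (log2 fold change -1.38, limma adjusted p = 0.0889). The zinc importer Slc39a14, a known target of IL-6 in hepatocytes, had 231 and 169 in WT and 107 and 128 in SGP (-0.75, limma adjusted p = 0.384). Both genes were thus lower in each SGP library without passing the test. Of the 20 list members with a promoter window, 8 (40%) held a metal response element core, against 23.8% of all 27025 genes.

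**Figure D1:**
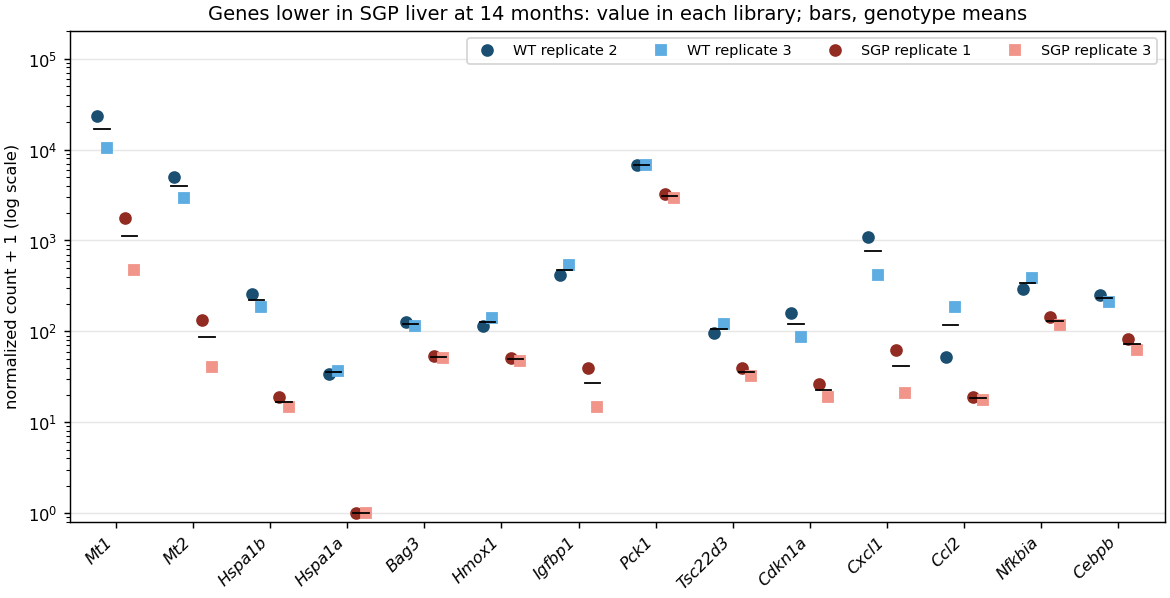
Normalized count plus 1, on a log axis, of 14 genes that were lower in SGP liver at 14 months, with a point for each of the 4 libraries and a bar for each genotype mean. Mt2 and Hspa1a, which had no reads in either SGP library, show the widest gaps between the genotypes.

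Igfbp1 belongs to a group of genes that fasting, glucocorticoid and low insulin induce in liver, and 16 of the 25 tested were lower in SGP, 13 with separate libraries, at a median of -0.39. Pck1, which encodes the PEPCK enzyme of gluconeogenesis, stood at 6777 and 6822 normalized counts in WT and at 3278 and 2919 in SGP (log2 fold change -1.14, SE 0.17, limma adjusted p = 0.0715). Tsc22d3, the glucocorticoid-induced leucine zipper gene GILZ, had 94.3 and 119 in WT and 38.9 and 31.5 in SGP (-1.57, limma adjusted p = 0.0785). Cdkn1a, which encodes the cell cycle inhibitor p21, had 157 and 84.7 in WT and 25.5 and 17.9 in SGP (-2.38, limma adjusted p = 0.0693). None of the 3 passed the threshold in limma, although each passed in DESeq2, which called 5 genes of this list. DESeq2 also called genes of other lists in which limma called none. Among these were 2 acute phase genes, 4 chemokine, cytokine and NF-kB genes and 4 male-biased genes. The median of the list stayed below 0 without any 1 of the libraries, between -0.62 without WT replicate 2 and -0.32 without SGP replicate 3.

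Acute phase genes were lower in SGP almost throughout. Of 31 tested, 30 were lower, 27 with both SGP libraries below both WT libraries, and 28 had an unadjusted p under 0.05, against 19.2% and 4.81% of all genes. The median log2 fold change was -1.50, and none passed the threshold. The serum amyloid genes Saa1 and Saa2, whose products replace apolipoproteins on HDL in inflammation, had the widest range. Saa1 stood at 31976 and 16132 normalized counts in WT and at 7162 and 296 in SGP (log2 fold change -3.96, SE 1.15, limma adjusted p = 0.374). Saa2 stood at 39302 and 14325 in WT and at 5116 and 173 in SGP (-4.65, SE 1.24, limma adjusted p = 0.315). Both genes had the same order over the libraries, highest in WT replicate 2 and lowest in SGP replicate 3, and in ratio the SGP libraries differed from each other by more than the WT libraries did. Reads that fit both Saa1 and Saa2 can have been left out or shared by the counting, as can those of the Orm genes. The folds rested on the SGP libraries, at -1.66 for Saa1 and -2.21 for Saa2 without SGP replicate 3, and at -6.26 and -7.09 without SGP replicate 1. Orm2, an orosomucoid gene, followed the same order with 977 and 485 in WT and 222 and 23.1 in SGP (-3.23, limma adjusted p = 0.302), and was at -1.63 without SGP replicate 3.

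Cebpb, Steap4 and Bcl3 came nearer to the threshold than the Saa genes. The transcription factor gene Cebpb, which acts with STAT3 on acute phase promoters, stood at 251 and 208 in WT and at 81.0 and 60.9 in SGP (log2 fold change -1.69, SE 0.22, limma adjusted p = 0.0551). Steap4, a metalloreductase gene, had 1471 and 913 in WT and 431 and 208 in SGP (-1.95, SE 0.34, limma adjusted p = 0.116). Bcl3, an atypical IkB protein, had 54.5 and 49.1 in WT and 15.5 and 19.96 in SGP (-1.50, limma adjusted p = 0.153). In all 3 genes each SGP library lay under each WT library. Hamp, which encodes the iron hormone hepcidin, had 8658 and 4575 in WT and 3091 and 3489.8 in SGP (-0.94, limma adjusted p = 0.386). Hpx, the heme scavenger hemopexin, had 96778 and 46602 in WT and 40995 and 20055 in SGP (-1.23, limma adjusted p = 0.447). In Hamp and Hpx, WT replicate 2 was far above the other libraries, and without it their log2 fold changes were -0.48 and -0.70. The 1 higher member, Serpina3k, a serine protease inhibitor gene chosen for mention after its values were seen, had 10142 and 14159 in WT and 23764 and 18514 in SGP (0.81, limma adjusted p = 0.387). The size of the shift depended on the libraries used. The median of the list was -0.91 without WT replicate 2 and -0.97 without SGP replicate 3, against -1.74 without SGP replicate 1 and -1.82 without WT replicate 3.

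Of 25 acute phase genes with a promoter window, 6 (24%) held the STAT3 site TTCNNNGAA in at least 1 window, against 8.13% of all 27025 genes, and these were Apcs, Fga, Fgb, Hamp, Itih4 and Steap4. No such site was found in the windows of Saa1, Saa2, Orm2, Cebpb, Bcl3 and Hpx. The windows of Fgb, which encodes the fibrinogen beta chain (chr3:83049864-83050113, minus strand), and Steap4 (chr5:7960222-7960471, plus strand) are shown as examples with the site in capitals, from RefSeq on GRCm38.p6. The site began 162 bases before the start of Fgb and 116 bases before that of Steap4.
Fgb: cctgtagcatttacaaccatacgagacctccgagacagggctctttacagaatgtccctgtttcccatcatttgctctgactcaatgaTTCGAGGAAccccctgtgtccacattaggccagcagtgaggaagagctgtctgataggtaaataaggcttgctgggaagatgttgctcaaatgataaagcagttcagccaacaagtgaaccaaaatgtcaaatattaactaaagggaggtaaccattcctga
Steap4: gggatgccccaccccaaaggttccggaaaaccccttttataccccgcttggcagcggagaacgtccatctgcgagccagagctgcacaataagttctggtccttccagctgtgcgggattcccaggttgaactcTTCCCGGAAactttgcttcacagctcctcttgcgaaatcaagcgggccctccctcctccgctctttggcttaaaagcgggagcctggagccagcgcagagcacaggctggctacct

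The components of the IL-6 pathway differed less than the acute phase genes. Of 20 tested genes 13 were lower and 7 higher, with a median of -0.15 that was -0.29 without SGP replicate 1 and -0.02 without SGP replicate 3. Il6 itself had 1 read in 1 WT library and none in the others, so its level was not measurable at this depth. The receptor gene Il6ra stood at 130.3 and 98.3 in WT and at 45.5 and 81.9 in SGP (log2 fold change -0.88, limma adjusted p = 0.447). The co-receptor gene Il6st had 395 and 263 in WT and 251 and 185 in SGP (-0.58, limma adjusted p = 0.535), and Stat3 had 252 and 189.8 in WT and 149 and 105 in SGP (-0.80, limma adjusted p = 0.384). These are the only 3 members with both SGP libraries under both WT libraries, a share below the 19.2% of all genes. In the higher direction 4 members were separate. An unadjusted limma p under 0.05 was reached by 4 lower and 3 higher members of the 20, shares above the 4.81% and 4.2% of all genes. Single libraries moved the folds, to -0.46 for Il6ra without SGP replicate 1 and to -0.28 for Il6st without WT replicate 2. Socs3, the feedback inhibitor that STAT3 induces, overlapped between the genotypes, with 49.6 and 22.0 in WT and 22.2 and 7.35 in SGP (-1.29, limma adjusted p = 0.546), and was at -0.56 without SGP replicate 3. Socs2, the feedback inhibitor of growth hormone signaling, was higher in SGP, with 33.1 and 43.2 in WT and 94.4 and 245 in SGP (1.98, limma adjusted p = 0.175).

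**Figure D2:**
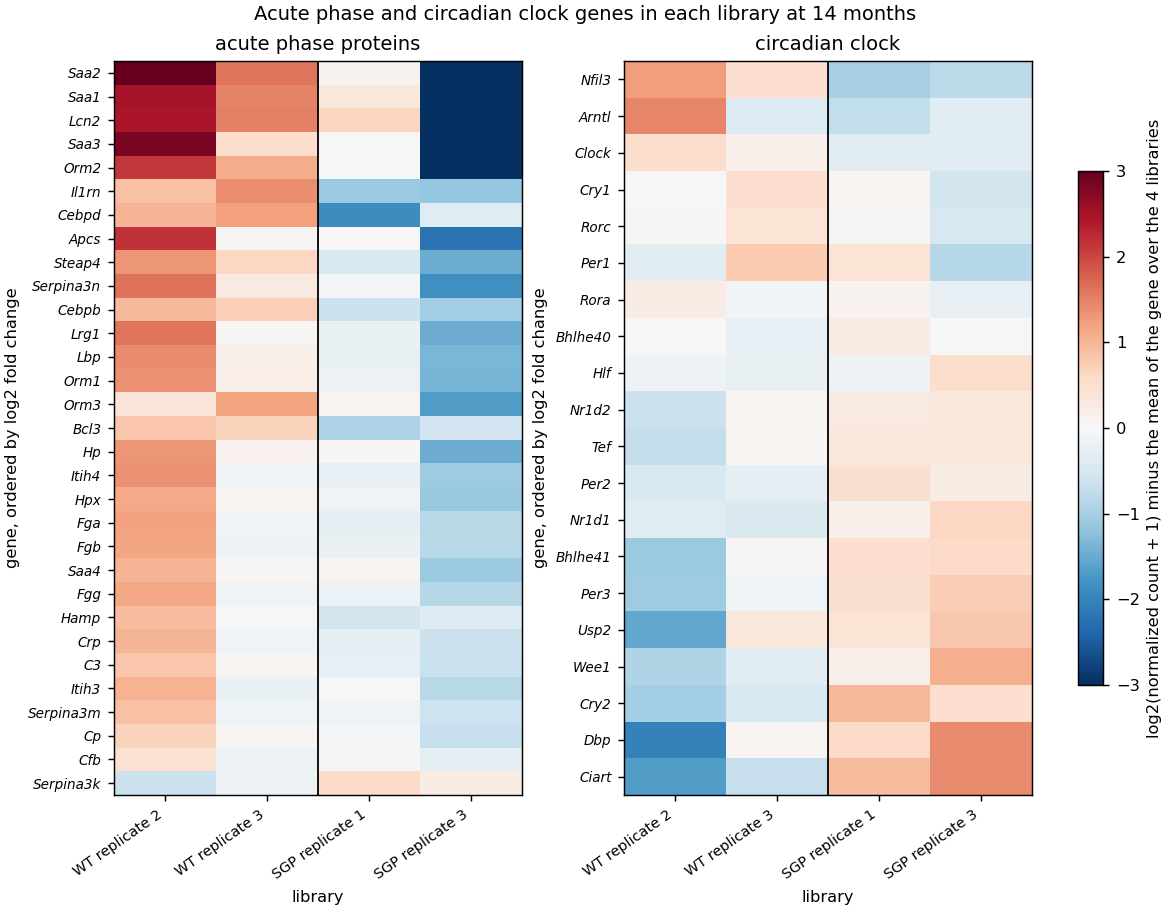
Acute phase genes (left, 31 genes) and circadian clock genes (right, 20 genes) in the 4 libraries, coloured by log2(normalized count + 1) minus the mean of the gene over the libraries. Acute phase genes were highest in WT replicate 2 and lowest in SGP replicate 3 for most rows, and WT replicate 2 also stands apart for the clock gene Dbp.

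Chemokine, cytokine and NF-kB genes were also mostly lower, in 26 of 31 tested, with separate libraries for 19, an unadjusted p under 0.05 for 15 and a median of -0.92. Cxcl1, a neutrophil chemoattractant, stood at 1098 and 416 normalized counts in WT and at 61.1 and 19.96 in SGP (log2 fold change -4.23, SE 0.54, limma adjusted p = 0.0551). Ccl2, a monocyte chemoattractant, had 51.5 and 183 in WT and 17.8 and 16.8 in SGP (-2.43, SE 0.50, limma adjusted p = 0.182). Cxcl1 was highest in WT replicate 2 and Ccl2 in WT replicate 3, so the WT libraries did not share 1 order, and Ccl2 was at -1.52 without WT replicate 3. Nfkbia, the IkB-alpha gene that NF-kB induces to limit itself, had 292 and 383 in WT and 142 and 118 in SGP (-1.36, limma adjusted p = 0.0715). Tifa, an adaptor of NF-kB signaling, had 153 and 116 in WT and 37.8 and 38.9 in SGP (-1.77, limma adjusted p = 0.0551). The IL-1 receptor gene Il1r1 had 43.8 and 27.1 in WT and 8.88 and 7.35 in SGP (-1.97, limma adjusted p = 0.168). Tnf had 1 read in all and Ccl20 none, and Il10 had 2 and 6 reads in WT against 2 and 5 in SGP, so none of these was tested. Of 21 immediate-early genes, which stress and growth factors switch on within minutes, 17 were lower and 11 separate, with a median of -0.68. Among them Gadd45g had 354 and 222 in WT and 121 and 10.5 in SGP (-2.91, limma adjusted p = 0.384), which was -1.20 without SGP replicate 3 and -4.61 without SGP replicate 1. Junb had 115 and 81.3 in WT and 45.5 and 24.2 in SGP (-1.51, limma adjusted p = 0.205).

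Markers of Kupffer cells, macrophages and neutrophils were lower with these genes. The 20 macrophage markers summed to 2733 and 4554 normalized counts in WT and to 2226 and 1812 in SGP, and all 17 tested were lower, 12 with separate libraries, at a median of -0.77 that was -0.46 without WT replicate 3. The scavenger receptor gene Marco stood at 41.8 and 127 in WT and at 30.0 and 15.8 in SGP (log2 fold change -1.70, limma adjusted p = 0.384). C1qc, a complement chain made by macrophages, had 858 and 1490.2 in WT and 578 and 599 in SGP (-0.94, limma adjusted p = 0.306). Of the general macrophage genes, Adgre1, which encodes F4/80, had 15.6 and 44.0 in WT and 14.4 and 9.45 in SGP (-1.10, limma adjusted p = 0.572), and Itgam, which encodes CD11b, had 10.7 and 19.5 in WT and 6.66 and 4.2 in SGP (-1.29, limma adjusted p = 0.53). Cd68 overlapped between the genotypes, with 27.2 and 53.4 in WT and 30.0 and 27.3 in SGP, and its log2 fold change of -0.40 (limma adjusted p = 0.777) turned to 0.07 without WT replicate 3. That library was the highest in each of these genes, and without it Marco was at -0.91, C1qc at -0.54 and Adgre1 at -0.38. The 10 neutrophil markers summed to 110.8 and 206.7 in WT and to 51.1 and 29.4 in SGP, and all 6 tested were lower. S100a9, a calgranulin gene, had 37.9 and 70.3 in WT and 12.2 and 4.2 in SGP (-2.67, limma adjusted p = 0.149). Each sum gave an exact permutation p of 0.33, two-sided, the smallest that 2 against 2 libraries allow. The part of these cells in the lower chemokine and acute phase values was not tested.

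**Figure D3:**
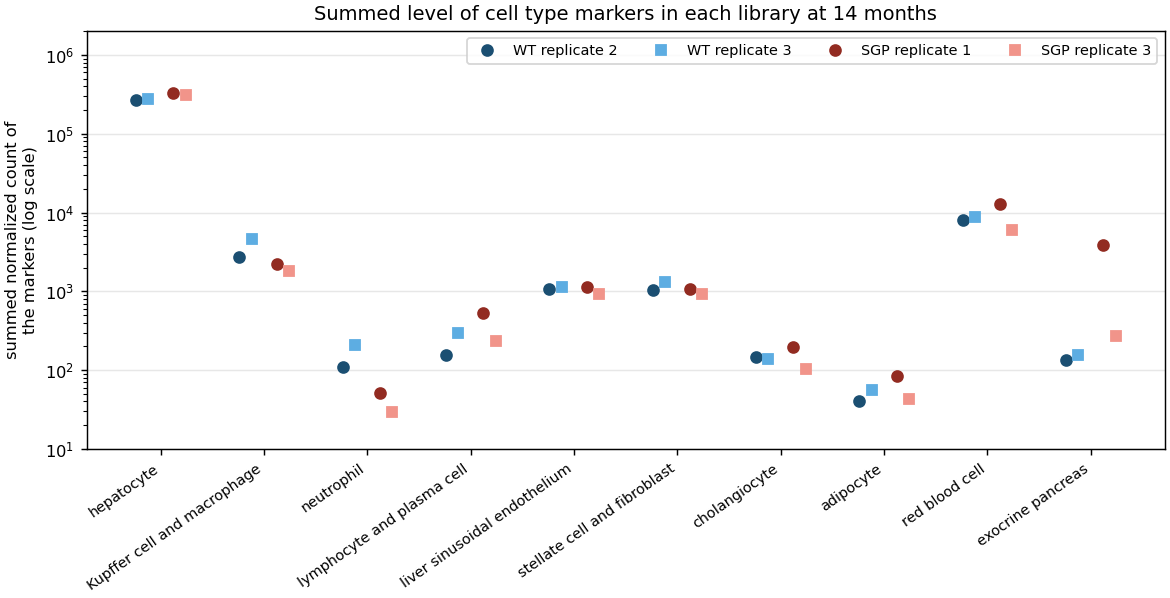
Summed normalized count of the markers of 10 cell types, on a log axis, with a point for each of the 4 libraries. Macrophage and neutrophil sums were lower in both SGP libraries, and the exocrine pancreas sum stands out in SGP replicate 1.

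Sums for the other cell types overlapped between the genotypes, except hepatocytes, which were higher in SGP, and exocrine pancreas, whose sum outside SGP replicate 1 was mostly Cela1. Markers of liver sinusoidal endothelium summed to 1078 and 1150 in WT and 1136 and 922.3 in SGP, and those of stellate cells and fibroblasts to 1033 and 1326 in WT and 1062 and 926 in SGP. Of the 15 endothelial markers tested 9 were lower, 4 with separate libraries, and 6 were higher, 2 with separate libraries. Their median of -0.20 turned to 0.05 without SGP replicate 3. The marker that fell most, Lyve1, a hyaluronan receptor gene of sinusoids, stood at 87.5 and 95.7 in WT and at 43.3 and 39.9 in SGP (log2 fold change -1.12, limma adjusted p = 0.173). Lymphocyte and plasma cell markers summed to 154 and 297 in WT and 531 and 231 in SGP.

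The lower values at 14 months were set beside those of the 6-month libraries, 3 per genotype, which were normalized in a table of their own. A limma interaction of age and genotype over 11289 genes, in which the age term takes up the scaling between the tables, found 3 genes past an adjusted p of 0.05 (0.0266%), Hspa1b, Mt2 and Aox3. Hspa1b had 9.02, 5.5 and 11.07 normalized counts in WT and 20.19, 13.15 and 9.06 in SGP at 6 months. Its 2 SGP values at 14 months lay within the range of the 6-month libraries, and its 2 WT values lay above all of them, with the caution that levels are set across separate tables. The genotype effect at 14 months minus that at 6 months was -4.35 on the log2 scale (SE 0.52, limma adjusted p = 0.0107). Mt2 had 22.55, 24.19 and 52.57 in WT and 35.06, 39.45 and 143.93 in SGP at 6 months, and its genotype effect differed by -6.60 (SE 0.82, limma adjusted p = 0.0107). For Mt2 too the WT libraries of 14 months stood above every 6-month library. Aox3, an aldehyde oxidase gene, had 1565.2, 1952.79 and 2068.7 in WT and 1185.64, 859.42 and 1221.91 in SGP at 6 months. At 14 months it had 863 and 934 in WT against 1616 and 1732 in SGP, with a difference between the effects of 1.68 (SE 0.23, limma adjusted p = 0.0243). The values of SGP were lower at 6 and higher at 14 months, and neither effect alone passed (limma adjusted p = 0.12 and 0.117). Igfbp1 had between 12.91 and 52.78 in WT and between 17.0 and 33.26 in SGP at 6 months, and its difference of -3.98 did not pass (limma adjusted p = 0.0872). Nor did the change of effect pass for Saa1 (-4.05, limma adjusted p = 0.314), although its 6-month libraries all lay between 260.59 and 465.73, near the SGP replicate 3 value of 296 and below the other libraries of 14 months. No gene passed the interaction without WT replicate 2 of 14 months, and 33 did without WT replicate 3.

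No gene passed the threshold among those higher in SGP, where 483 had an unadjusted p under 0.05 in limma, edgeR called 0 and DESeq2 called 23. The genes with the smallest p were mixed in function. Aacs, which encodes acetoacetyl-CoA synthetase and feeds ketone bodies into lipid synthesis, stood at 30.1 and 27.96 normalized counts in WT and at 112 and 101 in SGP (log2 fold change 1.84, SE 0.23, limma adjusted p = 0.0551). Angptl8, a hormone that insulin and feeding raise in liver, had 31.1 and 49.1 in WT and 141 and 127 in SGP (1.75, limma adjusted p = 0.0715). The aspartic protease gene Ctse had 2.92 and 9.32 in WT and 60.0 and 54.6 in SGP (3.19, SE 0.48, limma adjusted p = 0.0715). The genotypes were separate in all 3 genes, and the WT libraries of Ctse, with 3 and 11 reads, were further apart than the replicates of Aacs. The log2 fold change of Ctse was 2.50 without WT replicate 2 and 3.89 without WT replicate 3. Ctse was also higher in SGP at 6 months, with 4.51, 3.3 and 0 in WT and 259.23, 334.18 and 133.87 in SGP.

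Liver transcription factors were among them. Onecut1, which encodes HNF6, had 20.4 and 24.6 in WT and 74.4 and 94.5 in SGP (log2 fold change 1.86, limma adjusted p = 0.0693), and Foxa2 had 62.2 and 61.0 in WT and 147 and 165 in SGP (1.32, limma adjusted p = 0.0715). The Wnt receptor gene Fzd8 had 9.72 and 4.24 in WT and 54.4 and 45.2 in SGP (2.75, limma adjusted p = 0.0715). The orphan receptor gene Gpr146, which acts on plasma cholesterol, had 108 and 133 in WT and 284 and 270.0 in SGP (1.20, limma adjusted p = 0.0838). All of these differed by more than 1 on the log2 scale, as did Gbp11, a gene of the guanylate-binding protein family annotated as a polymorphic pseudogene, with 5.83 and 6.78 in WT and 38.9 and 61.98 in SGP (2.78, limma adjusted p = 0.0626). It differed in direction from the interferon genes as a list, of which 25 of 35 were lower, 10 with separate libraries and a median of -0.16 that was -0.37 without SGP replicate 1 and turned to 0.17 without SGP replicate 3. Zbp1, a nucleic acid sensor gene, had 106 and 67.8 in WT and 32.2 and 37.8 in SGP (-1.26, limma adjusted p = 0.208).

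**Figure D4:**
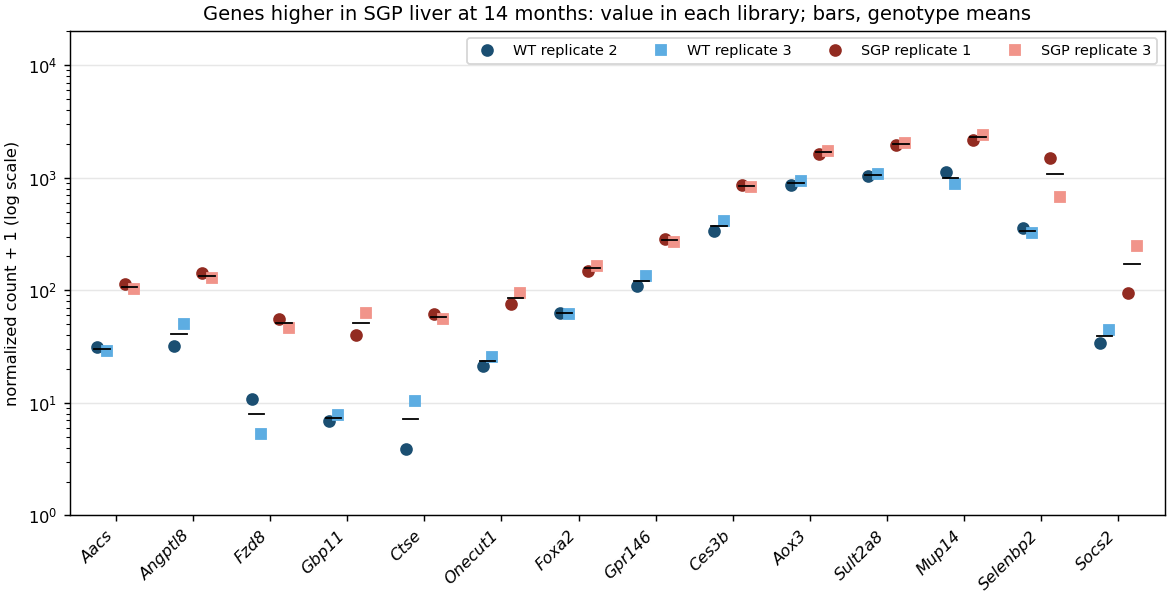
Normalized count plus 1, on a log axis, of 14 genes that were higher in SGP liver at 14 months, with a point for each of the 4 libraries and a bar for each genotype mean. Both SGP points lie above both WT points for each gene, and none passed an adjusted p of 0.05 in limma.

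Enzymes that clear drugs and other foreign compounds were mostly higher. Markers of hepatocytes, the cells that make these enzymes, were higher in 11 of 15, with 9 separate and a median of 0.28. The other 4, with Pck1 among them, were lower, 3 with separate libraries. Pck1 is also in the fasting list and the marker Fgb in the acute phase list, so the markers are not independent of those lists. An unadjusted limma p under 0.05 was reached by 1 higher and 3 lower markers. The part of hepatocytes in the results for these and the following metabolic lists was not tested. Of 51 cytochrome P450 genes, which oxidize such compounds, 41 were higher, 27 with separate libraries against 21.1% of all genes, with a median of 0.39. Of 71 genes for conjugation and other steps, 63 were higher and 37 separate, also with a median of 0.39, which was 0.15 without WT replicate 2 and 0.62 without WT replicate 3. Ces3b, a carboxylesterase gene, stood at 337 and 407 normalized counts in WT and at 862 and 822 in SGP (log2 fold change 1.18, SE 0.17, limma adjusted p = 0.0715). Sult2a8, a bile acid sulfotransferase gene, had 1037 and 1072 in WT and 1965 and 2044 in SGP (0.93, limma adjusted p = 0.107). Cyp1a2 had 2189.7 and 2279.7 in WT and 3721 and 3250.3 in SGP (0.64, limma adjusted p = 0.306). Replicates of these abundant genes lay close together and the genotypes were separate, although the differences did not pass the test. Many P450, esterase and sulfotransferase genes have close paralogs, and reads that fit more than 1 of them can have been left out or shared.

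Lipid genes leaned the same way. In cholesterol synthesis 25 of 27 genes were higher, 11 separate, with a median of 0.42 that was 0.13 without SGP replicate 1 and 0.23 without WT replicate 2. Mvd, of the mevalonate pathway, had 85.6 and 68.6 in WT and 174 and 112 in SGP (log2 fold change 0.86, limma adjusted p = 0.387). In fatty acid synthesis 15 of 21 were higher and 4 were separate, which is near the share of all genes, and the median of 0.25 turned to -0.16 without WT replicate 2. Srebf1, the transcription factor gene that insulin uses to drive lipogenesis, had 89.5 and 138 in WT and 253 and 224 in SGP (1.09, limma adjusted p = 0.2). Thrsp, a lipogenic gene known as Spot 14, had 421 and 1947 in WT and 2560.4 and 2499 in SGP (1.48, limma adjusted p = 0.48), so WT replicate 2 was far below the other libraries, and without it the log2 fold change was 0.38. Triglyceride storage genes were higher in 19 of 26 with a median of 0.14 that was 0.23 without WT replicate 3, among them G0s2, an inhibitor of the lipase ATGL, with 12.6 and 22.0 in WT and 40.0 and 55.7 in SGP (1.44, limma adjusted p = 0.272). Fitm1, which helps to form lipid droplets, had 75.8 and 88.1 in WT and 162 and 154 in SGP (0.94, limma adjusted p = 0.183). Fatty acid oxidation genes were higher in 31 of 42, 14 separate, with a median of 0.18 that was 0.10 without WT replicate 2 and 0.12 without SGP replicate 3. No member of these lists passed the threshold.

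Genes of amino acid and bile acid metabolism leaned higher by small amounts. Of 21 genes for the breakdown of branched-chain amino acids and propionate, 18 were higher and 15 separate, with a median of 0.22 that was 0.13 without WT replicate 2. Dbt, a subunit of the branched-chain keto acid dehydrogenase, stood at 169 and 153 in WT and at 249 and 217 in SGP (log2 fold change 0.53, limma adjusted p = 0.454). Of 33 genes of the urea cycle and amino acid metabolism 26 were higher, 14 separate, with a median of 0.16 that was 0.08 without WT replicate 2, 0.37 without WT replicate 3 and 0.31 without SGP replicate 3. Bhmt, which remethylates homocysteine, had 3282 and 4401 in WT and 9822 and 5903 in SGP (1.0, limma adjusted p = 0.306). Of 35 bile acid genes 28 were higher and 13 separate, with a median of 0.20 that was 0.07 without WT replicate 2, and the bile acid receptor gene Nr1h4, which encodes FXR, had 202 and 243 in WT and 334 and 324 in SGP (0.57, limma adjusted p = 0.409).

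Growth hormone pulses set the male pattern of liver genes, and 26 of 30 male-biased genes were higher in SGP, 18 with separate libraries and 16 with an unadjusted p under 0.05, against 21.1% and 4.2% of all genes. The median was 0.47 and stayed between 0.47 and 0.52 without any 1 of the libraries. Selenbp2, a selenium-binding protein gene, stood at 356 and 319 normalized counts in WT and at 1489 and 673 in SGP (log2 fold change 1.57, limma adjusted p = 0.18). Hsd3b5, a steroid dehydrogenase gene of male liver, had 350.0 and 332 in WT and 723 and 533 in SGP (0.86, limma adjusted p = 0.208). At 6 months both genes were lower in SGP, at -2.79 for Selenbp2 and -3.55 for Hsd3b5 (limma adjusted p = 0.157 and 0.182). Their change of effect between the ages did not pass (limma adjusted p = 0.0989 and 0.204). Major urinary protein genes, whose products carry pheromones, did not share 1 direction. Mup14 had 1115 and 873 in WT and 2162 and 2397 in SGP (1.20, limma adjusted p = 0.0715), whereas Mup17, chosen for mention after its values were seen, had 7932 and 4858 in WT and 2095 and 1264 in SGP (-1.93, limma adjusted p = 0.0715). Mup genes are near copies of each other, so how their reads were counted is uncertain. Of 13 female-biased genes 8 were higher, and their median of 0.58 turned to -0.12 without WT replicate 2. Cyp2a4 among them, also chosen for mention after its values were seen, had 0 reads in both WT libraries and 1 and 35 in SGP, at least 13.6-fold higher by the floor of 3 reads over the WT group, so its level rested on SGP replicate 3. Hamp2, the paralog of hepcidin, overlapped between the genotypes, with 35 and 404 in WT and 892 and 155 in SGP (1.63, limma adjusted p = 0.69), and its log2 fold change was -0.12 without WT replicate 2. At 6 months it had 54.13, 73.67 and 104.22 in WT and 508.89, 659.07 and 596.86 in SGP.

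Clock genes, which cycle over the day, differed between the libraries as well. Of 20 tested, 13 were higher in SGP, 12 of them separate, and 9 had an unadjusted p under 0.05, with a median of 0.63 that was 0.33 without WT replicate 2. Dbp, a clock output factor, stood at 19.4 and 85.6 normalized counts in WT and at 122 and 220.6 in SGP (log2 fold change 1.97, limma adjusted p = 0.384). Nr1d1, which encodes the repressor REV-ERB alpha, had 491 and 468 in WT and 704 and 977 in SGP (0.79, limma adjusted p = 0.272). Nfil3, a repressor that competes with Dbp and was chosen for mention after its values were seen, had 119.6 and 71.2 in WT and 24.4 and 28.4 in SGP (-1.77, limma adjusted p = 0.107). For Dbp, WT replicate 2 was far below WT replicate 3, and its log2 fold change was 0.93 without WT replicate 2 and 3.01 without WT replicate 3. Each of the 3 genes was separate between the genotypes. The hour at which each liver was taken is not given in the sources used here, so hour and genotype cannot be told apart for these genes or for others that follow the time of day or the last meal.

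Cell cycle genes were lower in 23 of 26, 18 with separate libraries and 10 with an unadjusted p under 0.05, at a median of -0.77. The list holds arrest genes as well as drivers, and Cdkn1a above is a member. Trp53inp1, a p53 target that acts in growth arrest, stood at 90.4 and 141 normalized counts in WT and at 45.5 and 32.6 in SGP (log2 fold change -1.53, limma adjusted p = 0.149), and Pcna, the replication clamp, had 52.5 and 60.1 in WT and 33.3 and 32.6 in SGP (-0.75, limma adjusted p = 0.43). Extracellular matrix genes were lower in 21 of 33 with a median of -0.13 that was -0.31 without WT replicate 2 and -0.04 without WT replicate 3, among them Col3a1, a fibrillar collagen gene, with 126.4 and 236 in WT and 119.9 and 89.3 in SGP (-0.73, limma adjusted p = 0.53). Complement and coagulation genes were divided, with 19 of 36 lower, a median of -0.13 and a change of sign to 0.04 without WT replicate 2 and 0.08 without SGP replicate 3. C3, the central complement protein, had 13496 and 7857 in WT and 6421 and 4791 in SGP (-0.89, limma adjusted p = 0.4). MHC class II genes were higher in 6 of 7 with a median of 0.57 that was 0.08 without WT replicate 2 and 1.06 without WT replicate 3, and H2-Aa had 71.0 and 116 in WT and 139.9 and 168 in SGP (0.75, limma adjusted p = 0.455). Genes of the unfolded protein and integrated stress responses were lower in 18 of 24, at a median of -0.28 that was -0.77 without WT replicate 3, was -0.05 without SGP replicate 3 and turned to 0.20 without WT replicate 2. Genes encoded by mitochondrial DNA were higher in 11 of 15 with a median of 0.14 that was 0.02 without WT replicate 2, and 5 were separate.

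**Figure D5:**
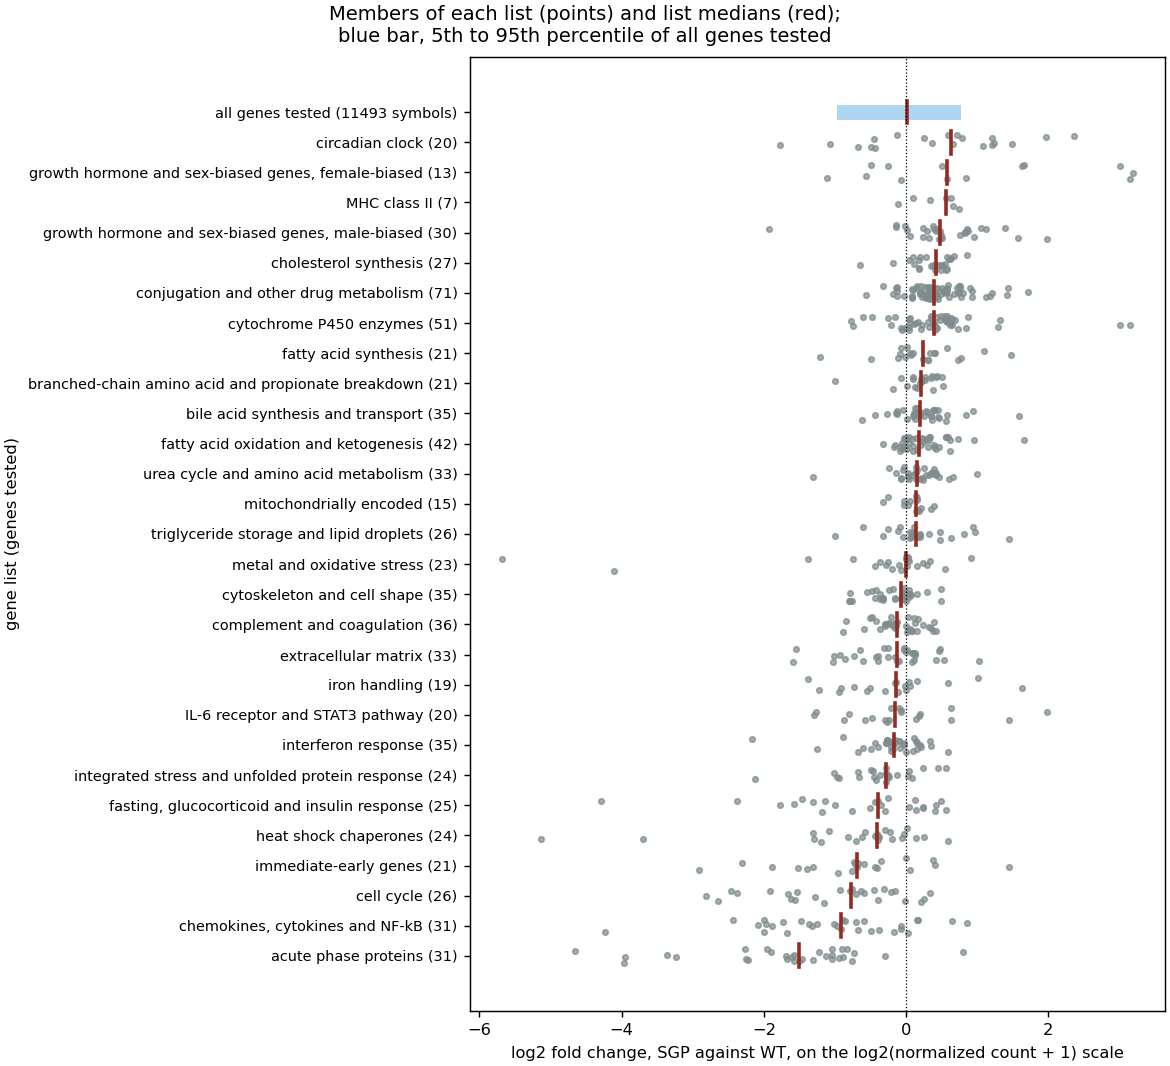
Log2 fold change, SGP against WT at 14 months on the log2(normalized count + 1) scale, of each tested member (points) of 28 gene lists, with the list medians in red, above them the median of all genes and, as a blue bar, their 5th to 95th percentile. The acute phase list lies furthest to the left, with a median of -1.50, and the clock list furthest to the right, with 0.63.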

How the data were processed

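Liver RNA of 2 WT and 2 SGP libraries of 14 months was analysed, with 3 and 3 libraries of 6 months for the interaction with age. The authors sequenced CEL-Seq libraries, aligned them to GRCm38.p6 and counted reads per gene. The submitters' processing notes name FastQC 0.11.5, Trim Galore, cutadapt 1.10, TopHat2 2.1.0, Bowtie2 2.2.6, HTSeq 0.6.1 and DESeq2 1.18.1, without the role of each. The deposited signal, called normalized counts, is the read count of a gene divided by the size factor of its library, in a separate table for each age. At 14 months 100% of the non-zero values equalled a whole number of reads times a constant of the library (tolerance 0.01 read), so reads were recovered by division. No column of per-sample values was left unused. Use of strand and of molecular identifiers is not given in the sources used here, and intervals from reads would cover counting error only.

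The genotypes were compared in R 4.3.3 with limma 3.58.1, allowing a variance trend, after adding 1 to the normalized counts and taking log2. Genes entered when their mean reached 5, with Benjamini-Hochberg adjustment over all genes tested and a threshold of 0.05. Adding 1 makes the fold changes of low genes too small. The quasi-likelihood test of edgeR 4.0.16 and DESeq2 1.42.0, both on the recovered reads, were alternatives, the former calling 3 genes and the latter 53. The tests were checked on simulated data. Shares and marker sums were compared by exact permutation tests. Gene lists and members were chosen with earlier results of these data known, so list counts are descriptions, read beside the same counts over all genes. Genes were named by a rule that takes those past the threshold, up to 10 per direction with the smallest p and a mean of at least 20, up to 4 leading members of each list, a fixed set of IL-6, inflammatory and macrophage genes, and close paralogs. Serpina3k, Mup17, Nfil3 and Cyp2a4 fall outside it, as do Apcs, Fga, Fgb and Itih4, which were named for a motif in their promoters. Positions are those of the deposited tables. Promoter windows of 250 bases came from RefSeq on the same build. No sequencing batch is given, so no value was recomputed within batches.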

Additional observations from a re-analysis of the deposited data

Results flagged for a closer look

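For 3 genes the genotype effect differed between 14 and 6 months by the limma interaction test, each with n = 2 libraries per genotype at 14 months and n = 3 at 6 months. The difference was -4.35 on the log2 scale for Hspa1b (limma adjusted p = 0.0107), whose effect was -3.71 at 14 months and 0.65 at 6 months. For Mt2 it was -6.60 (limma adjusted p = 0.0107), with effects of -5.69 and 0.91. For Aox3 it was 1.68 (limma adjusted p = 0.0243), with effects of 0.90 and -0.78, neither of which passed at its own age (limma adjusted p = 0.117 and 0.12). The tables of both ages were normalized separately, and age cannot be told apart from any batch that the libraries of an age share. Without WT replicate 2 of 14 months no gene passed, and without WT replicate 3 of 14 months 33 genes did.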

How the results depend on the processing

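The 3 calls of lower genes were kept with a pseudocount of 0.5 or 5, with no filter on low values, with TMM scaling, with scaling by total reads, with edgeR and with DESeq2. With a mean of at least 20, Igfbp1 was lost. With no variance trend 0 lower genes passed, although the folds of the 3 genes were the same. DESeq2 called 30 lower and 23 higher genes. Leaving out 1 library in turn gave between 0 and 244 lower genes and between 0 and 329 higher genes, where the lone library of a genotype is assumed to vary like the pair of the other. The interaction with age, with 3 genes, called 7 with a pseudocount of 5, 9 with no filter, 0 with no variance trend, and between 0 and 33 when 1 library was left out. The causes were not tested. Of 117 genes named, 115 changed direction under no setting tried. This is no check of direction, because most were named for their difference in these same libraries. A gene whose libraries are separate between the genotypes keeps its direction whichever library is left out. When 1 library was left out, Cd68 ranged from -0.88 without WT replicate 2 to 0.07 without WT replicate 3, and Hamp2 from -0.12 without WT replicate 2 to 3.38 without WT replicate 3. Scaling by total reads moved the median of all genes from 0.01 to -0.06 on the log2 scale, and TMM to -0.01. Scaling by total reads also lowered the list medians of triglyceride storage from 0.14 to 0.06, of fatty acid oxidation from 0.18 to 0.11, of branched-chain amino acid breakdown from 0.22 to 0.14 and of the urea cycle from 0.16 to 0.08, took the mitochondrially encoded genes from 0.141 to 0.065, and moved complement and coagulation from -0.13 to -0.21 and extracellular matrix from -0.13 to -0.20. No paired analysis was possible because the labels do not pair WT with SGP libraries. At 3332502 to 3996786 reads a library, genes such as Il6, Tnf and Ccl20 were at or under the floor of 3 reads.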
